A study of Homo sapiens with 16 samples.

Results

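The genes described here store iron, take it up, release it or sense it in the cell. They are FTL and FTH1, the light and heavy chains of ferritin, the transferrin receptor TFRC, the iron exporter SLC40A1 (ferroportin), the heme oxygenase HMOX1, the iron regulatory proteins ACO1 and IREB2, and NCOA4, the receptor that carries ferritin to the lysosome. They were chosen by name, and all 8 were found among the 27043 gene rows of the deposited table. The light chain stands in a joint row with the short entry DQ591443. The table gives RNA counts for 603 cells of the human neuroblastoma line SK-N-AS, which were grown untreated in RPMI1640 medium with fetal calf serum. They were sorted 1 to a well and measured with MARS-seq, a method that counts the 3' ends of polyadenylated RNA. The labels describe 16 samples of this line, but the columns carry barcodes that show no sample, so all cells form 1 pool, the study has no contrasting group and no test across samples was possible.

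A cell keeps iron that it does not use in ferritin, a hollow shell built of both chains. The heavy chain oxidises iron as it enters, and the light chain helps the mineral core to form. Iron arrives bound to transferrin through TFRC, and NCOA4 brings ferritin back to the lysosome when iron is needed. When iron is scarce, ACO1 and IREB2 bind short hairpins in messenger RNA called iron-responsive elements. Binding near the start of a message blocks translation of ferritin and ferroportin, and binding behind the coding region protects the TFRC message from decay. HMOX1 opens the heme ring and frees its iron. Transcription of both ferritin chains and of HMOX1 is also driven by the stress factor NRF2 and held down by BACH1.

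The hairpins are shown because they are what links several of these genes to iron. The longest protein-coding transcript of each gene (GENCODE release 29, build GRCh38) was searched on the transcript strand for the 6-base loop CAGTGN with 5 bases on either side that pair with each other (G with T allowed) and a C just before the first of these 5. Of 19702 genes, 1.32% held a match. Among the 8 genes, 4 did: FTL, FTH1 and SLC40A1 with 1 match each and TFRC with 4. For 3 of these genes the matches with their flanks read as follows, 5′ to 3′ in DNA letters, with the loop in capitals.
FTL 5' UTR, chr19:48965336-48965362, plus strand: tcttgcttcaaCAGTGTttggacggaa
SLC40A1 5' UTR, chr2:189580662-189580688, minus strand: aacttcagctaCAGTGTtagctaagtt
TFRC 3' UTR, chr3:196050980-196051006, minus strand: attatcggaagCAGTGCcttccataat
TFRC 3' UTR, chr3:196050576-196050602, minus strand: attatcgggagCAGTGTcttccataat
TFRC 3' UTR, chr3:196050511-196050537, minus strand: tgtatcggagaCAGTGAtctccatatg
TFRC 3' UTR, chr3:196050464-196050490, minus strand: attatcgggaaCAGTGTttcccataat
The FTL and SLC40A1 matches lie before the coding region and the TFRC matches behind it. HMOX1, IREB2, ACO1 and NCOA4 had no match, which says only that these letters are not in those transcripts. The counts measure the RNA and not how it is translated.

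The 603 cells held 1537576 counts, with totals per cell from 1000 to 42404 and a median of 2106. The column names make 2 stretches, called barcode set 1 (316 cells) and barcode set 2 (287 cells) here, in which 239 barcodes occur in both. The labels do not say what they are, and they serve only as a technical check. Neuroblastoma markers were present, with TBX2 at 407 CPM (counts per 1000000 counts) and HAND2 at 273 CPM. Of cells known for handling much iron, erythroid and hepatocyte markers had 0 counts for 7 of 7 and 5 of 5 genes. The 7 leukocyte and macrophage markers summed to 75.4 CPM, mainly from the lysosomal gene CD68 at 54.6 CPM. The leukocyte gene PTPRC stood at 18.9 CPM (12.6 to 27.1, 29 counts in 25 cells), and CD163, LYZ and AIF1 were at 0.

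Ferritin light chain RNA was among the most abundant in these cells, and the other iron genes spread over a wide range below it. FTL had 9037 counts, 5877 CPM with an exact Poisson 95% interval of 5757 to 5999.9, and ranked 6 of the 13641 rows with a count. At least 1 count was found in 599 of 603 cells (99.3%, exact binomial 95% interval 98.3 to 99.8). FTH1 had 1022 counts, 665 CPM (625 to 707), in 400 cells (66.3%, 62.4 to 70.1), and ranked 223. Together the ferritin chains made up 0.654% of all counts. All intervals cover counting error only.

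The receptor, the iron sensors and the ferritin carrier formed a close group far below the heavy chain. TFRC had 58 counts, 37.7 CPM (28.6 to 48.8), in 48 cells, of which 41 had 1 count, 4 had 2 and 3 had 3. ACO1 had 56 counts (36.4 CPM, 27.5 to 47.3) in 47 cells. NCOA4 had 52 counts (33.8 CPM, 25.3 to 44.3) in 48 cells, and IREB2 had 42 counts (27.3 CPM, 19.7 to 36.9) in 37 cells. Neighbours in this order did not differ beyond counting error, as the ratio of TFRC to ACO1 was 1.04 (0.705 to 1.52), of ACO1 to NCOA4 1.08 (0.725 to 1.60) and of NCOA4 to IREB2 1.24 (0.809 to 1.91).

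The genes of heme breakdown and iron release stood lowest. HMOX1, whose RNA is known to be strongly inducible, had 16 counts (10.4 CPM, 5.95 to 16.9), each in a cell of its own, and IREB2 exceeded it by a ratio of 2.63 (1.45 to 5.00). SLC40A1, the only known exporter of iron from animal cells, had 0 counts. Taking 3 counts as the limit that a count of 0 allows, this leaves room for up to 1.95 CPM, or a count in 0.498% of cells. The exact Poisson interval used for the other genes ends at 2.40 CPM. HMOX1, TFRC, ACO1, NCOA4 and IREB2 were each seen in 16 to 48 cells, so at this depth they describe the pool and hardly single cells.

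**Figure D1:**
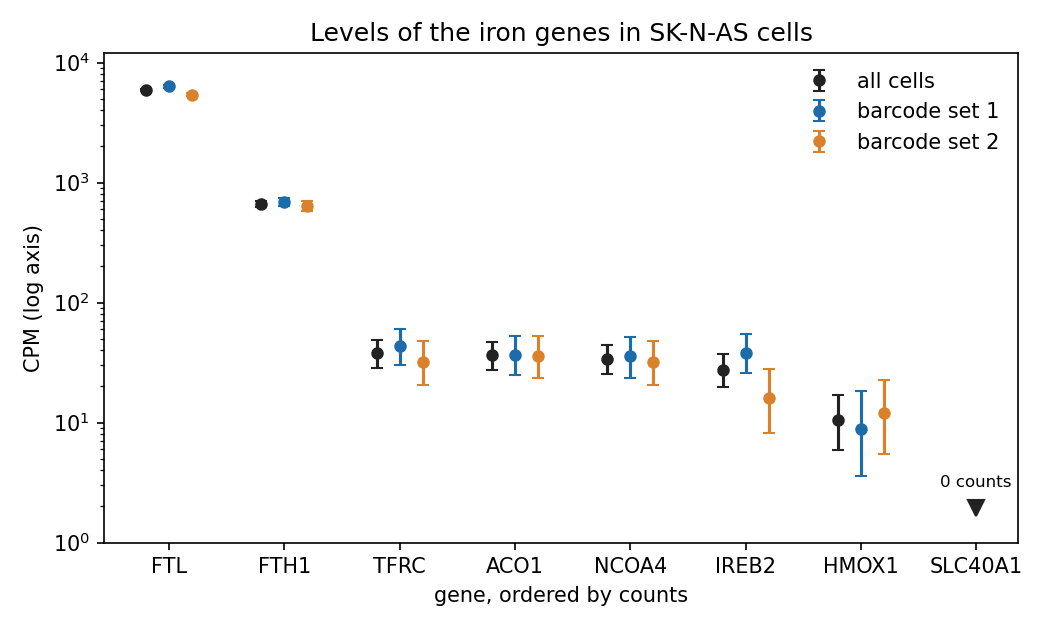
Levels of the 8 genes in CPM on a log axis, for all cells and for each barcode set, with exact Poisson 95% intervals. FTL at 5877 CPM and FTH1 at 665 CPM stand apart from TFRC, ACO1, NCOA4 and IREB2 at 27.3 to 37.7 CPM, and the triangle for SLC40A1, at 0 counts, marks the 3-count limit of 1.95 CPM, not an interval.

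Both barcode sets gave the same order of the ferritin chains. FTL stood at 6344 CPM in set 1 and 5389 CPM in set 2, a log2 ratio of 0.24 (0.18 to 0.30) that exceeds counting error. FTH1 stood at 689 and 639 CPM, a log2 ratio of 0.11 (-0.070 to 0.29). IREB2 differed most, with 30 counts in set 1 and 12 in set 2 (38.2 and 15.97 CPM, log2 ratio 1.26, 0.25 to 2.36). TFRC (43.2 and 31.9 CPM), ACO1 (36.9 and 35.9 CPM), NCOA4 (35.6 and 31.9 CPM) and HMOX1 (8.90 and 11.98 CPM) differed by less than counting error.

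The light chain outnumbered the heavy chain in RNA by 8.84 counts to 1 (8.29 to 9.44). It made up 89.8% of ferritin counts (89.2 to 90.4), and 90.2% and 89.4% in barcode sets 1 and 2. Counts were not divided by length, as a 3' end is counted whatever the length of its transcript. Per kilobase of the longest GENCODE transcript, 878 bases for FTL and 1229 bases for FTH1, the ratio of levels would be 12.4. Division would reorder the low genes: NCOA4 9.53, TFRC 7.38, HMOX1 5.71, ACO1 4.88 and IREB2 4.30 CPM per kilobase. For a method that counts 3' ends, the undivided levels are the ones to compare. The size of the ratio is uncertain because ferritin genes have many processed pseudogenes. GENCODE names 16 for FTL and 25 for FTH1, and the sources used here do not say how reads shared among copies were counted. In this table the pseudogene row FTH1P3 held 20 counts, and FTLP10 and the related gene FTHL17 held 0.

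Cells differed widely in their light chain RNA. In the 560 cells that could be thinned at random to 1100 counts each, called equal depth from here on, FTL ran from 0 to 72 counts with a median of 5, with quartiles at 3 and 8. Only 14 cells had no FTL count, while 20 cells had 20 or more and held 17.6% of all FTL counts. Of these 20 cells, 11 lay in barcode set 1 and 9 in set 2. The 56 cells with the most FTL held 33.6% of its counts, against 18.7% for the same number of GAPDH-richest cells and 25.4% for the intermediate filament gene VIM, both of similar mean (6.22 and 6.21 counts, against 6.56 for FTL).

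Measured by the Fano factor (variance over mean, 1 for pure counting), FTL reached 7.33. This was the highest of 155 rows with a mean of at least 1 count, whose median was 1.19, and GAPDH stood at 1.32. Among 344 rows with a mean of at least 0.5 it ranked 2, behind INS-IGF2. At a given spread the Fano factor grows with the mean. The excess CV, the spread beyond counting error divided by the mean, was 0.98 for FTL, with 1.01 in barcode set 1 and 0.90 in set 2. By this measure FTL ranked 5 of the 155 rows and 15 of the 344. It ranked 1 among the 20 rows nearest in mean, whose median was 0.24. FTL counts hardly followed the total of the cell, with a Spearman rho of -0.095 across the 560 cells.

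Heavy chain RNA also varied beyond counting, though its low level leaves the estimate less sure. At equal depth FTH1 ran from 0 to 6 counts with a mean of 0.768, and 295 cells (52.7%) had none where a Poisson distribution of that mean gives 259.8. Its Fano factor was 1.47 and its excess CV 0.78, the second highest when set among its 20 nearest rows, whose median was 0.43. With another random thinning the excess CV of FTH1 was 0.66.

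**Figure D2:**
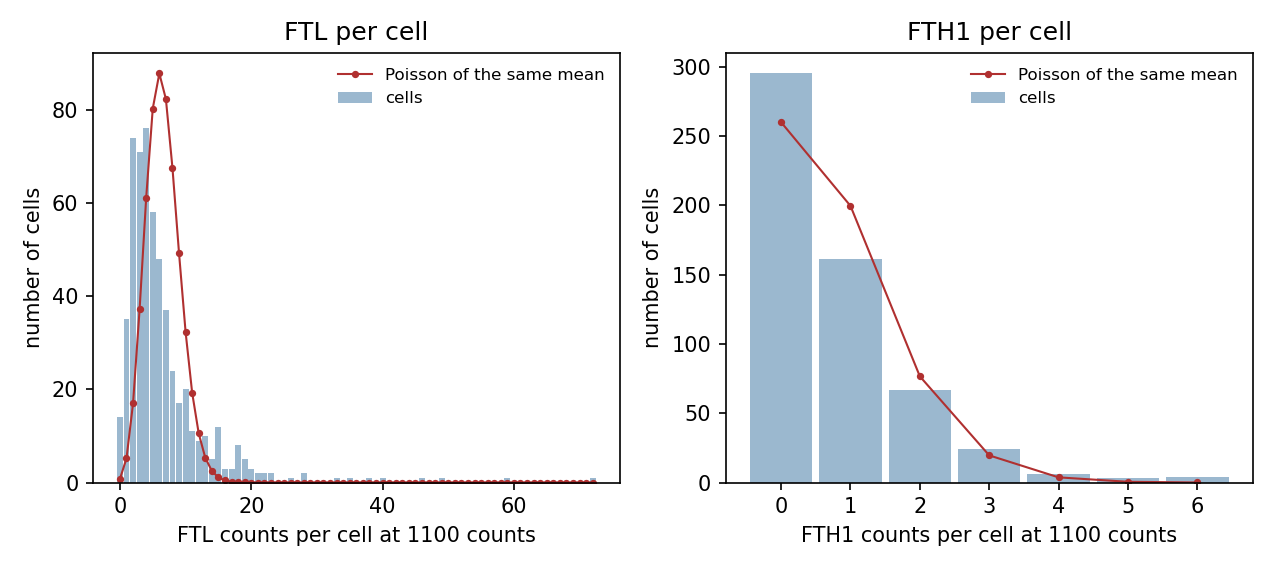
Number of cells (vertical axis) by counts of FTL (left) and FTH1 (right) per cell in 560 cells thinned to 1100 counts, with a Poisson distribution of the same mean as a line. FTL is spread from 0 to 72 counts around a median of 5, far wider than the line, and FTH1 has 295 cells at 0.

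**Figure D3:**
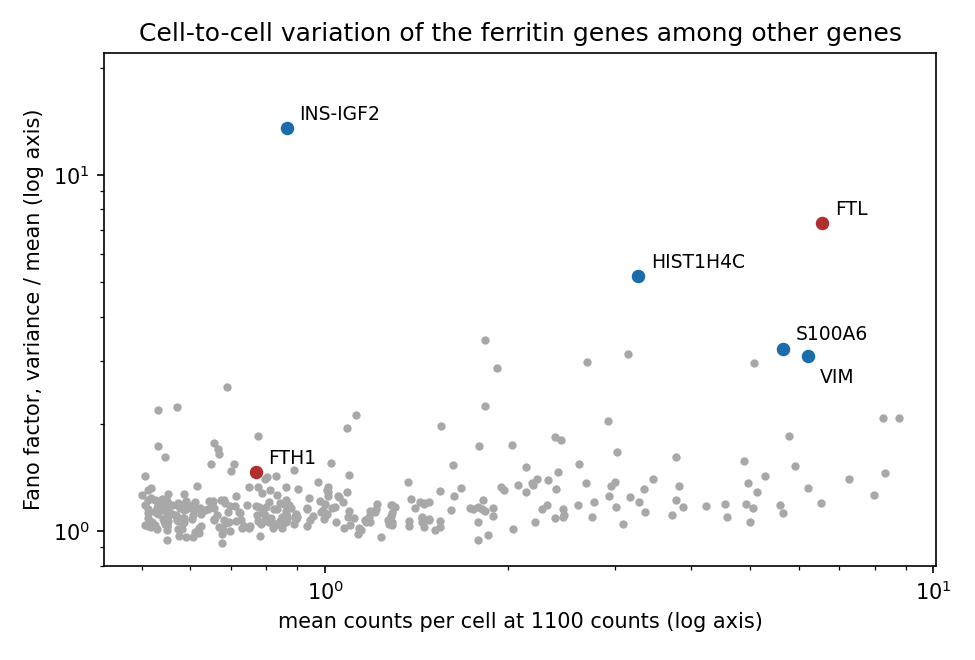
Fano factor against mean counts per cell at 1100 counts, both on log axes, for 344 rows with a mean of at least 0.5. FTL at 7.33 lies above the other rows of similar mean such as S100A6 and VIM, and FTH1 at 1.47 lies somewhat above the median of 1.16.

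Cells with more heavy chain RNA had more light chain RNA. The 295 cells without an FTH1 count had a median of 4 FTL counts (quartiles 2 and 6). The 161 cells with 1 FTH1 count also had a median of 4 (3 and 7). The median was 8 (4 and 13) in the 67 cells with 2 counts and 11 (6 and 15) in the 37 cells with 3 or more. The groups overlapped widely, and the cell with the most FTL, 72 counts, had no FTH1 count. Mean FTL counts over the same 4 groups were 5.73, 6.56, 10.1 and 15 in barcode set 1, and 5.04, 5.49, 8.19 and 10.8 in set 2.

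**Figure D4:**
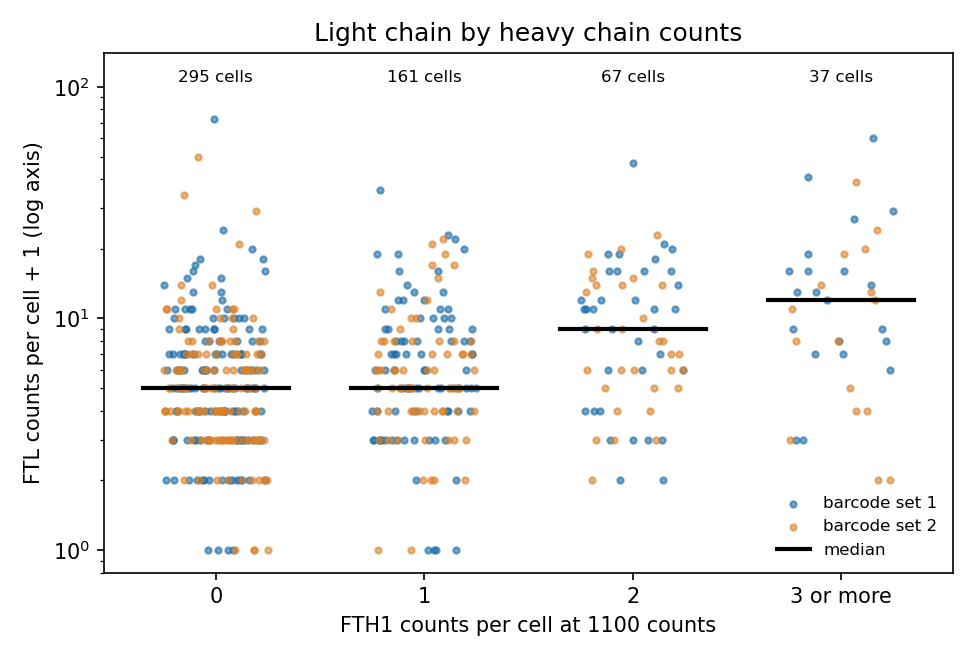
FTL counts plus 1 per cell on a log axis, by FTH1 counts, in 560 cells thinned to 1100 counts. Points are cells coloured by barcode set, and bars mark medians, which stand at 4, 4, 8 and 11 FTL counts before 1 is added.

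Across the 560 cells the chains had a Spearman rho of 0.26 and a Pearson r of 0.30. The Spearman value was 0.29 within barcode set 1 and 0.24 within set 2. These cells share their libraries and depth, and the values are a description without a test. Counting error in FTH1 lowers such values. With the covariance divided by the spread beyond counting error, the correlation was 0.57 (0.65 in set 1 and 0.48 in set 2). This value is less sure, because that spread moved for FTH1 (excess CV 0.78, but 0.66 with another random thinning). The corrected value was not computed under alternatives. Among 343 rows with a mean of at least 0.5, FTL was the row most correlated with FTH1, and FTH1 ranked 3 for FTL, behind S100A6 (0.37) and SQSTM1 (0.26).

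The split between the chains scattered somewhat more across cells than counting gives. Cells were ordered by FTL and cut into 4 groups of 140. Mean FTH1 counts were 0.579, 0.507, 0.664 and 1.32 from the lowest to the highest group, with Poisson intervals of 0.459 to 0.719 and 1.14 to 1.53 at the ends. FTL per FTH1 count went from 2.89 to 7.27, 9.06 and 11.3. Ordering by FTL itself favours that direction, so the rise does not show that the balance changes with FTL. Across 552 cells with ferritin counts the split between the chains scattered 1.31 times as much in variance as binomial counting gives. No interval was made for this value, and single cells, such as one with 1 FTL and 6 FTH1 counts, weigh much in it. In the 334 cells with at least 5 ferritin counts the light chain share had a median of 90% and a lower quartile of 82.6%.

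Receptor RNA was not scarce where ferritin RNA was abundant. Over the same 4 groups of cells by FTL, full counts of TFRC were 12, 11, 16 and 18 (28.7, 31.8, 44.0 and 49.3 CPM), with intervals of 14.8 to 50.2 in the lowest and 29.2 to 77.9 in the highest group, which overlap. The ferritin carrier NCOA4 had 10, 7, 15 and 20 counts (23.9, 20.2, 41.2 and 54.8 CPM), also with overlapping intervals. ACO1 had 13, 14, 14 and 14 counts, IREB2 9, 14, 10 and 9, and HMOX1 4, 2, 0 and 9. SLC40A1 had 0 in each group. FTH1 itself stood at 436, 469, 635 and 1139 CPM (375 to 504 in the lowest, 1032 to 1254 in the highest).

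At equal depth only 19 cells had a TFRC count, fewer than the 50 set as the least for a comparison over all genes, so only the ferritin values are given. These 19 cells had a median of 7 FTL counts (0 to 26), and the 541 others a median of 5. Mean FTL was 9.47 (8.14 to 10.96) with TFRC and 6.46 (6.25 to 6.68) without, and mean FTH1 was 1.32 (0.852 to 1.94) and 0.749 (0.677 to 0.825). The direction was the same in both barcode sets for FTL (10.0 against 7.04, and 8.57 against 5.82) and for FTH1 (1.25 against 0.765, and 1.43 against 0.730). The 14 cells with NCOA4 had a mean of 11.8 FTL counts, but of 7.67 in barcode set 2, and their highest cell had 46. The 16 cells with IREB2 had a mean of 4.13, and the 17 with ACO1 5.71, against 6.63 and 6.59 in cells without. The 6 cells with HMOX1 had a mean of 7.33 FTL counts, below the other cells in barcode set 1 (4.5 against 7.18) and above them in set 2 (8.75 against 5.85), and of 2.33 FTH1 counts. Poisson intervals of these means treat counts as independent, which the wide spread of FTL shows they are not, and with so few cells the differences are not firm.

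The ends of the FTH1 range were compared over all genes as well. The 186 cells with the most FTH1 (1 count or more) were set against 186 drawn at random from those with 0. Of the rich cells 82 had a single count and were drawn at random from the 161 such cells. Median totals were 2234 counts in the rich and 2380 in the poor cells. FTL had 7622 CPM in the rich and 4689 CPM in the poor cells, a log2 ratio of 0.70 (0.63 to 0.78), 0.75 in barcode set 1 and 0.56 in set 2. TFRC had 32 and 15 counts (log2 ratio 1.13, 0.21 to 2.12), but 2.01 in set 1 and 0.23 in set 2, and from 0.52 to 1.66 under the alternatives tried. IREB2 had 20 and 8 counts (1.36, 0.12 to 2.76), but it turned to -0.33 with another random thinning. ACO1 had 17 and 12 (0.54, -0.61 to 1.74), NCOA4 18 and 17 (0.12, -0.92 to 1.17, but -0.37 with groups made in set 1) and HMOX1 9 and 3 (1.63, -0.38 to 4.15).

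Of the 7 other genes, 4 had at least 50 counts in all cells. FTL, TFRC and ACO1, 3 of these 4, lay above a log2 ratio of 0.5, where 9.62% of all 4637 rows did, and none lay below -0.5, where 11.2% did. ACO1 stayed under 0.5 with another random thinning (0.24) and with groups made at 800 and 1500 counts (0.39 and 0.27), so its place among the 3 is not firm. Their median was 0.62, and that of all rows was -0.029. IREB2, HMOX1 and SLC40A1 were below 50 counts. The 7 macrophage and leukocyte markers had 35 counts in the rich and 42 in the poor cells (log2 ratio -0.22, -0.91 to 0.46).

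Genes of heme synthesis were broadly expressed, and their summed level differed little between cells with much and little ferritin RNA. Of 13 genes of heme synthesis 12 had counts, with a median of 42.3 CPM, while the median of all rows with a count was 14.96 CPM. ALAS1, the first and rate-limiting enzyme in most cells, stood at 80.6 CPM (67.1 to 96.2), and its erythroid form ALAS2 was at 0. The highest were the mitochondrial carrier gene SLC25A39 (305 CPM), TMEM14C (279 CPM), needed to bring a heme precursor into the mitochondrial matrix, and the enzymes UROD (161 CPM) and UROS (129 CPM). FECH, which inserts the iron, stood at 42.3 CPM (32.6 to 53.9). Over the 4 groups of cells by FTL the summed heme synthesis genes stood at 1192, 1197, 1174 and 1059.9 CPM, with an interval of 957 to 1171 in the highest group and 1089 to 1301 in the lowest. SLC25A39 and TMEM14C, which are not enzymes of the pathway, weigh most in such sums, with 469 and 429 of the 1773 counts of the list in all cells.

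Across the 560 cells, 5 of the 13 heme synthesis genes had a mean of at least 0.1 count and could be set against ferritin. Their median rho was -0.043 with FTL and -0.020 with FTH1, where the medians of all rows were -0.0041 and -0.0038. With FTL 0 of the 5 reached 0.1, as 3.82% of all 2066 rows did, and 1 was below -0.1, as 5.13% of rows were (UROD, -0.12). Between cells rich and poor in FTH1 the summed list had a log2 ratio of -0.089 (-0.26 to 0.080). Of its 7 genes with at least 50 counts 0 lay above 0.5, where 9.62% of all 4637 rows did. Below -0.5 lay 1 of the 7, where 11.2% did. With 7 genes such counts hardly set the list apart from all rows.

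In heme breakdown and transport, the constitutive oxygenase HMOX2 stood at 93.7 CPM (79.0 to 110.3), above the inducible HMOX1 at 10.4 CPM. The next enzyme, the biliverdin reductase BLVRA, reached 224 CPM, the heme-binding PGRMC2 134 CPM and the transporter ABCB6, whose row it shares with ATG9A, 125 CPM. HPX, HP, CD163 and ABCG2, 4 of the 18 genes, were at 0. Only 4 genes could be set against ferritin across cells, with a median rho of 0.014 for FTL, from ABCB6 at -0.11 to BLVRA at 0.084. For some single heme genes, mean FTL differed between cells with and without a count of them, while medians were close. The 48 cells with ALAS1 had a mean of 8.79 FTL counts and the 512 without it 6.35 (log2 ratio 0.47, 0.32 to 0.62), with 9.89 against 6.87 in barcode set 1 and 7.25 against 5.78 in set 2. Their medians were 5.5 and 5, and the 48 included the cell with the most FTL, 72 counts, which raises their mean. The 117 cells with BLVRA had a mean of 7.26 and those without 6.38 (0.19, 0.074 to 0.30), with a median of 5 in both. HMOX2, with 55 cells, gave 6.73 and 6.54 (0.040), and FECH, with 27 cells, 6.74 and 6.55 (0.041). As above, these intervals treat counts as independent.

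The genes that went with the light chain most were of other kinds. The 5 with the highest rho were the calcium-binding S100A6 (0.37, with 0.42 and 0.29 in barcode sets 1 and 2) and S100A4 (0.25), the autophagy receptor SQSTM1 (0.26), FTH1 (0.26) and the chromatin protein HMGA1 (0.25). For FTH1 they were FTL (0.26), S100A4 (0.21), the ribosomal protein genes RPL35A (0.19) and RPS4X (0.18), and S100A6 (0.19). At the other end stood INS-IGF2, which shares its row with INS (-0.21), and SNRPD3 (-0.20) for FTL, and MIF (-0.15) for FTH1.

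SQSTM1 belongs to the list of NRF2 and BACH1 targets and regulators, and other genes of that list went with FTL too. Of its 22 genes all had counts, led by SQSTM1 (715 CPM), the quinone reductase NQO1 (573 CPM) and thioredoxin TXN (528 CPM). NFE2L2, which encodes NRF2, stood at 28.0 CPM, its inhibitor KEAP1 at 85.8 CPM and BACH1 at 2.60 CPM (0.709 to 6.66, 4 counts). Of the 9 genes with a mean of at least 0.1, 4 had a rho of 0.1 or more with FTL, against 3.82% of all rows. The list was chosen with earlier results of these data known, and all rows were not matched to it in mean. The share is therefore a description and no test. They included SQSTM1, TALDO1 (0.18) and NQO1 (0.16), each above 0.1 in both barcode sets. The median over the 9 was 0.091.

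For FTH1 the same list had a median rho of 0.016, and 1 of 9 reached 0.1 (SQSTM1, 0.15), where 1.79% of all rows did. Between cells rich and poor in FTH1, however, the summed list was higher in the rich cells (log2 ratio 0.30, 0.21 to 0.39). Of its 13 genes with at least 50 counts, 10 lay above 0. Above 0.5 lay 2 of the 13, where 9.62% of all 4637 rows did, and below -0.5 lay 0, where 11.2% did. Whether the list goes with the light chain more than with the heavy chain was not tested, and the fewer FTH1 counts lower its values. Over the 4 groups of cells by FTL the summed list stood at 3463, 3572, 4257 and 5489 CPM (3287 to 3646 in the lowest, 5251 to 5734 in the highest). SQSTM1 is also the most abundant gene of the list and so weighs most in that sum.

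**Figure D5:**
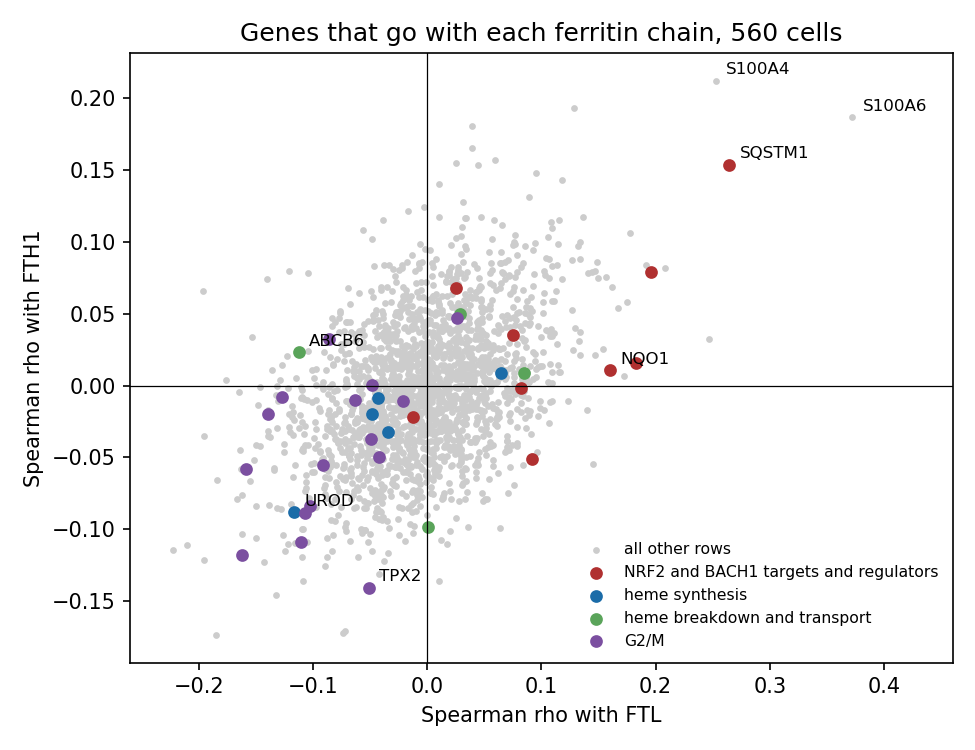
Spearman rho with FTL (horizontal axis) and with FTH1 (vertical axis) across 560 cells thinned to 1100 counts, for rows with a mean of at least 0.1, with 4 gene lists in colour. SQSTM1 and NQO1 lie to the right, heme genes lie near 0, with UROD and ABCB6 at -0.12 and -0.11 for FTL, and most G2/M genes lie to the left.

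Ferritin RNA was lower in cells with a high sum of G2/M genes. The 186 cells with the highest sum of 30 G2/M genes (8 counts or more) were set against the 186 with the lowest (3 or fewer), and 19 and 35 of them lay at those bounds. FTL had a median of 4 counts per cell (quartiles 2 and 6) in the rich and 6 (4 and 9.75) in the poor cells, and 5135 and 6963 CPM. The log2 ratio was -0.44 (-0.51 to -0.36), but -0.61 in barcode set 1 and -0.18 in set 2, and -0.11 when groups were made within set 2 alone. FTH1 had 280 and 367 counts (549.7 and 819.8 CPM), a log2 ratio of -0.58 (-0.81 to -0.35), with -0.57 and -0.58 in the sets. Median totals were 2441 and 2070 counts. The sum was not weighted, so the most abundant genes of the list weigh most in it. In all cells HMGB2 held 2236 and TUBB4B 1617 of the 9679 counts of the list. The summed G1/S list was higher in the rich cells too (log2 ratio 0.45, 0.33 to 0.58). The 2 groups thus differed in more than G2/M genes.

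The sparse genes did not differ beyond counting in this comparison. TFRC, which dividing cells are known to need, had 15 and 18 counts (-0.45, -1.54 to 0.62), IREB2 15 and 18, ACO1 16 and 23 (-0.71, -1.73 to 0.27) and NCOA4 15 and 19 (-0.53, -1.61 to 0.53). HMOX1 had 4 and 4. Of the 5 genes with at least 50 counts, 3 lay below -0.5 (FTH1, ACO1 and NCOA4), where 12.1% of 4612 rows did, and 0 above 0.5, where 15.4% did. That count moved with the settings. NCOA4 stood at -0.22 with another random thinning, -0.30 at 1500 counts, -0.11 with a split at the median and -0.19 within set 2. Within set 2 ACO1 stood at -0.04 and FTH1 at -0.495, and FTH1 stood at -0.39 with the split at the median. Across cells 7 of 16 measured G2/M genes had a rho of -0.1 or less with FTL and 3 of 16 with FTH1, against 5.13% and 2.18% of all rows. Here too all rows were not matched in mean to a list chosen with earlier results known, so these shares are no test.

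Other parts of iron handling were expressed with gaps. Of 30 genes of iron transport and sensing 18 had counts. The iron chaperones PCBP2 and PCBP1 stood at 726 and 525 CPM, CD63, a vesicle protein linked to ferritin secretion, at 1601 CPM, and ATP6V0E1, a subunit of the pump that acidifies endosomes, at 155 CPM. Of the steps that bring iron into the cytosol, the endosomal reductase STEAP3 stood at 42.3 CPM, the importer SLC39A14 at 94.95 CPM and SLC11A2 at 11.7 CPM. FBXL5, the iron sensor that marks IREB2 for degradation, stood at 7.15 CPM (3.57 to 12.8) and HERC2, a ligase that acts on NCOA4, at 41.0 CPM. Transferrin (TF), hepcidin (HAMP), HFE and the ferroxidases HEPH and CP, which work with ferroportin in export, were at 0 as SLC40A1 was. None of the 5 measurable genes reached a rho of 0.1 with FTL, where 3.82% of all rows did. CD63 alone did so with FTH1 (0.16, with 0.14 and 0.17 in the sets), where 1.79% of all rows did. So few genes hardly set this list apart from all rows.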

How the data were processed

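The values the authors deposited are raw counts for each gene in each cell, without normalization. The submitters' processing notes name Bowtie2 2.1.0 and the genome build hg19. The sources used here do not give the counting tool, annotation, cell filter, or whether a count is a molecule or a read. A row named unknown (2 counts) was left out. All columns were used, and no doublet caller was run because cells were sorted singly. Levels are CPM over all cells, with exact Poisson or Clopper-Pearson intervals at 95%, which cover counting error only. Per-cell values come from cells thinned without replacement to 1100 counts, leaving out 43 shallower cells. Groups of cells were formed on thinned counts, ties broken at random, and their full counts summed. Log2 ratios of CPM carry exact conditional binomial intervals, and shares of rows past 0.5 are over rows of at least 50 counts. With 1 pool no test was made. Planned comparisons of cells with and without TFRC or HMOX1 over all genes were not made, since fewer than 50 cells had a count.

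The 8 genes and the lists were chosen with earlier results of these data known. The text names these genes, the 4 list members of highest CPM, the 5 rows of highest rho to FTL and FTH1 (means of at least 0.5) and the 5 highest and lowest ratios of each comparison. For TFRC no such rows are named, as it was too sparse. Other names come from the lists or were chosen after their values were seen. Gene lengths and hairpin matches come from GENCODE release 29 (GRCh38), used for sequence only, while the counts rest on hg19. Values of 3 listed genes are not reported here. The code was tested on simulated data. Python 3.11.15, numpy 2.4.6, scipy 1.17.1 and pandas 2.3.3 were used.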

Additional observations from a re-analysis of the deposited data

How the results depend on the processing

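Samples could not be left out because columns show none. No paired analysis was possible because there is 1 group and the columns carry no replicate numbers. Of 116 values of main results under alternatives, 85 stayed within the interval of the reported value (or within 0.1 for rho and excess CV, or 1.5 times for a count of rows). The FTL level was 6025 CPM with cells weighted equally, 6344 in barcode set 1 and 5389 in set 2, IREB2 was 38.2 and 15.97 CPM in the sets, and FTH1 was 709.5 CPM without joint rows, which leave FTL without a value. The rho of FTL and FTH1 ran from 0.23 to 0.36. The excess CV of FTH1 was 0.67 at 1500 counts and 0.66 with another random thinning. Between cells rich and poor in FTH1 the FTL log2 ratio was 0.58 and 0.84 with groups made at 800 and 1500 counts, 0.78 and 0.50 within sets 1 and 2, 0.60 with a split at the median and 0.51 for cells with against without FTH1, an alternative chosen after seeing the data. IREB2 reversed there to -0.76 at 800 counts and to -0.33 with another random thinning. Between cells rich and poor in G2/M genes the FTL ratio was -0.58 and -0.60 at 800 and 1500 counts, -0.60 and -0.11 within sets 1 and 2, and -0.23 with a split at the median. The cause of these moves was not tested. Rows past 0.5 in the FTH1 comparison numbered 446 higher and 521 lower, but 703 higher in set 1, 902 lower in set 2, 248 and 332 with a median split, 1012 and 1187 with rows of at least 20 counts, and 237 higher for cells with against without FTH1. In the G2/M comparison they numbered 708 and 557, but 848 lower in set 2, 457 and 355 with a median split, and 1396 and 1230 with rows of at least 20 counts. At a median of 2106 counts per cell, genes near 30 CPM give no reading of single cells.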

Other observations

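Genes that build iron into proteins were broadly expressed. Of 34 genes of iron-sulfur cluster assembly and mitochondrial iron 32 had counts, with a median of 47.8 CPM. FAM96B, of the cytosolic targeting complex, led at 393 CPM, followed by BOLA3 (265 CPM), the scaffold ISCU (222 CPM) and CIAO1 (185 CPM), while mitochondrial ferritin (FTMT) and BOLA2 were at 0. Of the 9 genes that could be set against ferritin across cells, 0 reached a rho of 0.1 with either chain. Of all rows 3.82% did so with FTL and 1.79% with FTH1. Below -0.1 with FTH1 was 1 of the 9 (FAM96B, -0.11), where 2.18% of all rows were. Of 16 genes linked to ferroptosis, not all of them defence genes, the highest were HSPB1 at 1141 CPM, the peroxidase gene GPX4 at 474 CPM, CISD1 at 166 CPM and SLC3A2 at 148 CPM. Only 5 of the 16 had a mean of at least 0.1 count, and the median rho of these 5 was 0.0052 with FTL.

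The rows at the ends of the FTH1 comparison were not iron genes. Highest among rows of at least 50 counts were SERTAD2 (log2 ratio 2.52, 1.34 to 3.92), GRSF1 (1.92), CCNL2 (1.69), the plasminogen activator PLAT (1.67, 1.32 to 2.04) and PCGF5 (1.65). Lowest were SHD (-2.46), PNPT1 (-2.28), the growth factor PTN (-2.04), INS-IGF2, in a row with INS (-1.98, -2.26 to -1.70), and CRABP1 (-1.92). FTL ranked 195 from the top of 4637. In the G2/M comparison the ends were CDCA3, CCNF, SPC25, KIF20A and MALAT1 (3.69 to 4.86) and HERPUD1, GNG8, ST20, VPS11 and METTL7A (-1.92 to -2.65). These are extremes of all ratios, and their intervals do not allow for that choice.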
